A study of Homo sapiens with 7 samples.

Results

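Imprinted genes are read mainly from the copy inherited from 1 parent, and 38 of them were set out as members of the group described here. The members were found through probes of the array whose platform annotation gives exactly 1 gene symbol. Of the 38, 34 had such a probe, out of 18646 genes in all, and SLC22A18, HYMAI, RTL1 and MCTS2P had none. Together the 34 genes had 56 probes, with 1 probe for 20 genes and several for 14, whose log2 ratios were averaged per gene. By textbook knowledge 20 of the 34 are read from the paternal copy, 11 from the maternal copy, and for 3 (GRB10, GNAS and BLCAP) the copy depends on the tissue or the transcript.

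In genomic imprinting the chosen copy is set by DNA methylation that is laid down in the egg or the sperm at imprinting control regions. That mark is copied at each cell division by the maintenance methyltransferase DNMT1, which UHRF1 brings to newly copied DNA. Control regions of this kind often rule a whole cluster of neighbours, some read from the maternal and some from the paternal copy, so that loss of methylation can switch some members on and others off. In tumours the copy choice is often lost, and promoters of imprinted genes can gain methylation on both copies.

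The RNA came from DLD1, HT29, RKO and HCT116, which are established human colorectal cancer cell lines, and 7 arrays compared knockdown with control in a pair of dyes. On 6 arrays, DLD1, HT29 or RKO cells with shRNA 49 or shRNA 51 against DNMT1 were set against the same line with a non-silencing control, giving 2 arrays per line. On the remaining array, HCT116 cells with an shRNA against UHRF1, for which the label states a knockdown of 60% and the title adds d14 with no further word, were set against HCT116 cells with a non-silencing control. The knockdown RNA carried Cy3 with shRNA 49 and Cy5 with shRNA 51 and on the UHRF1 array, so shRNA and dye cannot be told apart. The labels name neither separate cultures nor which preparation of the non-silencing control RNA each array held. The p-values therefore reflect the spread among the arrays alone, and that spread may be technical. In bulk RNA, a lower ratio from fewer cells that express a gene and one from less RNA per cell cannot be told apart. The ratios hold no expression level, so neither the cell type of the lines nor the copy that was read could be checked.

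Values are log2 ratios of knockdown over control. The files do not state this direction, which was read from DNMT1 and UHRF1 and is likely rather than settled. DNMT1 stood between 10.4% and 52.8% of control on the 6 DNMT1 arrays. On the UHRF1 array the 4 UHRF1 probes averaged -1.16 but ran from -3.10 to 0.68, so the direction there is less certain. The interquartile range over all probes ran from 0.778 to 0.968 on the shRNA 51 arrays, above the 0.558 to 0.726 of shRNA 49. Of 41000 probes, between 205 and 352 lacked a ratio with shRNA 49, between 2610 and 5075 with shRNA 51 and 1729 under UHRF1 knockdown. Between 34.0% and 44.1% of an array's ratios were held in exactly the same value by other probes of that array, and such values are called shared ratios below. Why they are shared is not stated in the sources used here. For the 56 member probes this share ran from 24.5% to 46.4%.

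The promoter windows shown here belong to the members that were at least 2-fold higher on the UHRF1 array and have an entry in the RefSeq promoter table (GRCh38.p14). Each runs from 250 bases before to 50 after an annotated start, 5′ to 3′ on the gene's strand. Capitals mark CG dinucleotides, the sites at which DNMT1 methylates. The H19 window lies at chr11:2001217-2001516 on the minus strand. The DIRAS3 window lies at chr1:68050578-68050877 on the minus strand. The NDN window lies at chr15:23687256-23687555 on the minus strand. The SNURF window lies at chr15:24954737-24955036 on the plus strand and is also 1 of the windows listed for SNRPN, since both proteins come from 1 transcript.
H19: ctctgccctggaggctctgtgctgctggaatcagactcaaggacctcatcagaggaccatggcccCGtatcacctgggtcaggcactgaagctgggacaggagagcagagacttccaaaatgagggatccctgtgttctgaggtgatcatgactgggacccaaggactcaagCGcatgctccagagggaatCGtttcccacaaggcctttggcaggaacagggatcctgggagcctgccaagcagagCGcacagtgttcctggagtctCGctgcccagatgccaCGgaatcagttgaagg
DIRAS3: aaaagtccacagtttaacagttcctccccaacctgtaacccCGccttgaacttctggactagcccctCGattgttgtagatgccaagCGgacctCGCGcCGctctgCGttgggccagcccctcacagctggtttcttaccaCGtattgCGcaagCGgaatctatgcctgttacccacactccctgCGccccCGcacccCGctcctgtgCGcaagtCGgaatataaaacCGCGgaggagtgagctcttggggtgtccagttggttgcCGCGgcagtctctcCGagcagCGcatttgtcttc
NDN: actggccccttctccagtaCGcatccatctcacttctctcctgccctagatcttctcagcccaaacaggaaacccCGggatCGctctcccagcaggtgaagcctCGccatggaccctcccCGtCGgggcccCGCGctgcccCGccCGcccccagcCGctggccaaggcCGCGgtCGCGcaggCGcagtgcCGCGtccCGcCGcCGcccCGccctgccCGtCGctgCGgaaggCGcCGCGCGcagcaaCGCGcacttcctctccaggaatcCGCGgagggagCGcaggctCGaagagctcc
SNURF: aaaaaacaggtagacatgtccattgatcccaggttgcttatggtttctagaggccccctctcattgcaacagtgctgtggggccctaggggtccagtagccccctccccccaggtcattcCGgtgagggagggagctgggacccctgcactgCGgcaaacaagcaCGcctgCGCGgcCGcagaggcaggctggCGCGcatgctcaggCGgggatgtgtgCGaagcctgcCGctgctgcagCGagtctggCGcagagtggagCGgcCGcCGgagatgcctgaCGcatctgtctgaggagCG
The H19 window holds 6 CG dinucleotides, against a median of 14 over all 35116 windows of the table, while the windows of DIRAS3, NDN and SNURF hold 21, 35 and 18. Entries were found for 22 of the 34 members, in 51 windows with a median of 18 CG dinucleotides, some of which overlap. The hexamer TGCCGC, which the imprint-guarding zinc finger protein ZFP57 is known to bind when methylated, was searched on both strands. It stood in 47.1% of the members' windows and in 16.7% of all windows of the same length. Windows that overlap, such as those of MEG3, can hold the same hexamer, so these are shares of windows and not of genes. Within the windows printed above it was found 2 times for DIRAS3, 2 times for SNURF, 1 time for NDN and not for H19. A match of letters is a description of these windows and shows no binding.

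Over all DNMT1 arrays, no imprinted gene passed the test, though 5 of them had a fitted mean at least 2-fold above control. Those were H19, SGCE, NDN, PEG10 and NNAT, of which H19 is read from the maternal copy and the others from the paternal copy. Of the 30 members with a ratio on at least 5 of the 6 arrays, 0 were called higher (limma, adjusted p under 0.05), where 0.380% of all 17623 tested genes were, and 0 lower, where 0.0170% were. The smallest adjusted p of a member was 0.182, for SGCE. At an unadjusted p under 0.05, 5 members lay higher (16.7%, against 7.20% of all genes), namely H19, SGCE, PEG10, NDN and PEG3, and 0 lower (against 4.18%). That count depended on which ratios entered. It was 2 of 26 where all 6 arrays had a ratio (7.69%, against 6.33% of all genes) and 2 of 20 without shared ratios (against 6.35%). With shRNA 49 alone it was 4 of 34 (11.8%, against 5.75%), with 1 lower, and with shRNA 51 alone 5 of 31 (16.1%, against 6.43%). The 5 members with a fitted mean at least 2-fold higher make 16.7% (against 3.88% of all genes), and 0 were at least 2-fold lower (against 0.477%). NNAT is among the 5 by a small margin and was under 2-fold without RKO shRNA 51, as given below. A fitted mean above 0 was found for 21 of the 30 (70.0%, against 55.2%). No member lay above 0 on all its arrays (against 4.20%), and none below 0 on all (against 3.15%).

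**Figure D1:**
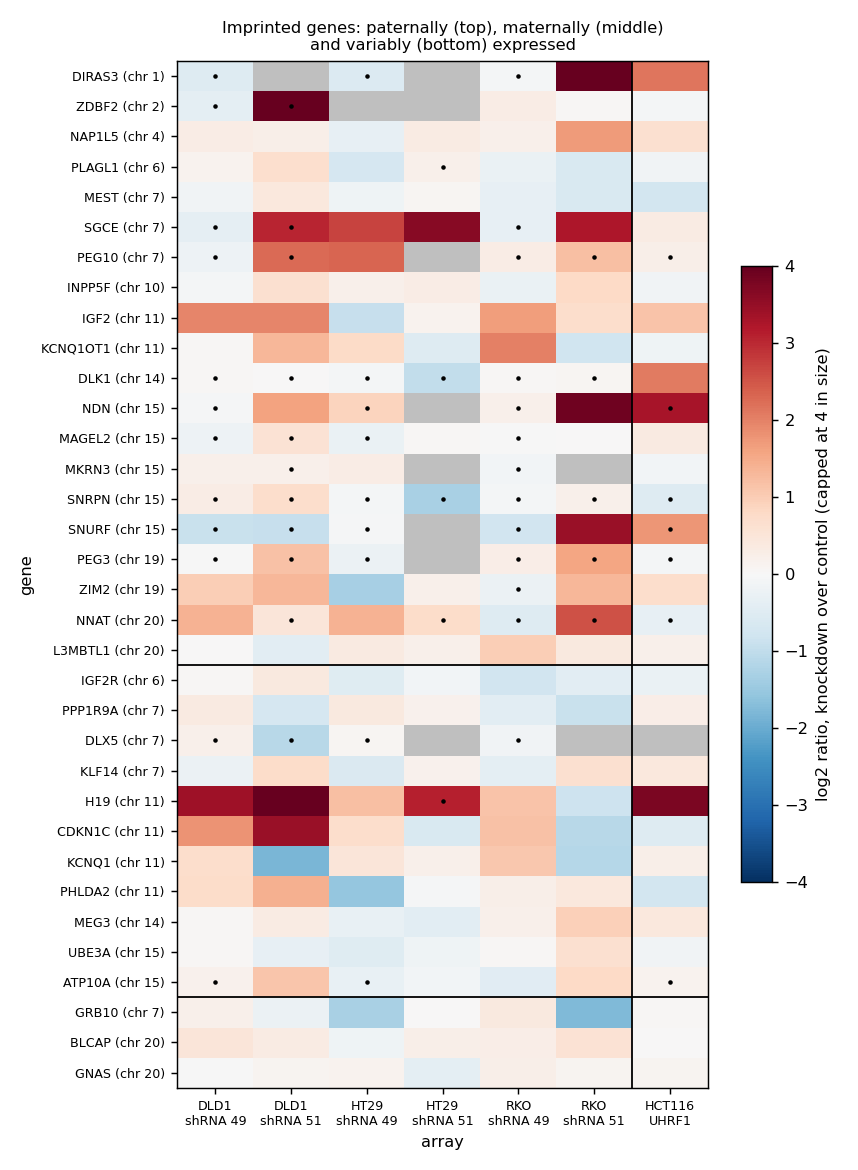
Log2 ratio of knockdown over control for the 34 imprinted genes (rows, with chromosome) on the 7 arrays (columns); the colour scale ends at 4 in size, grey cells have no ratio, and a dot marks cells in which every probe holds a shared ratio. H19 and SGCE are dark red on 3 or more arrays, and the brightest cells of DIRAS3, NDN and SNURF stand in RKO with shRNA 51.

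H19 and IGF2 are neighbours on chromosome 11 under 1 control region. H19 is a long non-coding RNA read from the maternal copy, and IGF2 encodes a fetal growth factor read from the paternal copy. In DLD1 H19 lay at 3.39 and 4.15, in HT29 at 1.20 and 3.12, and in RKO at 1.16 and -0.83, where the value of shRNA 49 precedes that of shRNA 51 here and below. It was high on both DLD1 arrays and below control on 1 RKO array. Its mean was 2.03 ± 0.69 (SE, n = 6, adjusted p = 0.343 by limma), or 4.08-fold. Here and below, a fitted mean and its SE come from the fit, which takes out the difference between the shRNAs. It equals the plain mean where all 6 arrays have a ratio, and otherwise allows for the missing one. Without the RKO array of shRNA 51 the fitted mean was 2.73 and passed the test (adjusted p = 0.0469). The ratio of 3.12 in HT29 is a shared ratio, and the others of H19 are not.

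In DLD1 IGF2 averaged 1.96 and 1.95, in HT29 -0.94 and 0.14, and in RKO 1.67 and 0.72. By that average it was below control in HT29 with shRNA 49 and above it elsewhere. Its mean was 0.92 ± 0.44 (SE, n = 6, adjusted p = 0.494). The 2 IGF2 probes differed in size, with means of 1.51 (adjusted p = 0.399) and 0.33 (adjusted p = 0.744), so the size is uncertain. With shRNA 51 they also had opposite signs in RKO (1.78 and -0.34) and HT29 (-0.02 and 0.31), so the sign there is uncertain too. H19 and IGF2 (as the probe average), read from opposite copies, each lay above 0 on 5 of 6 arrays. They were above 0 together on 4, the fewest that these counts allow, and of opposite sign on 2.

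The rest of the chromosome 11 cluster is under a second control region, the start of the non-coding RNA KCNQ1OT1. That RNA is read from the paternal copy and keeps its neighbours on that copy silent. The maternally read neighbours measured were CDKN1C, a cell cycle inhibitor, KCNQ1, a potassium channel, and PHLDA2, a brake on placental growth. In DLD1 CDKN1C lay at 1.80 and 3.46, in HT29 at 0.69 and -0.62, and in RKO at 1.18 and -1.12. It was high in DLD1 and below control with shRNA 51 in the other lines, with a mean of 0.90 ± 0.62 (SE, n = 6, adjusted p = 0.632). Without the DLD1 array of shRNA 51 its fitted mean was 0.19. In DLD1 KCNQ1OT1 lay at 0.05 and 1.31, in HT29 at 0.75 and -0.50, and in RKO at 2.003 and -0.79, where each value averages 2 probes. Its average had the same sign as CDKN1C on all 6 arrays and as KCNQ1 on 4, a comparison made after the values were seen. In DLD1 with shRNA 49 the 2 KCNQ1OT1 probes had opposite signs, -0.40 and 0.49. In DLD1 KCNQ1 lay at 0.71 and -1.83, in HT29 at 0.48 and 0.21, and in RKO at 1.08 and -1.15. KCNQ1 was therefore lower with shRNA 51 in each line. PHLDA2 averaged 1.07 over the DLD1 arrays, -0.81 over those of HT29 and 0.33 over those of RKO. None of these 4 passed any test.

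SGCE and PEG10 lie head to head on chromosome 7 and start from 1 shared region, which is methylated on the maternal copy. SGCE encodes a sarcoglycan of the cell membrane, and PEG10 a protein derived from a retrotransposon. In DLD1 SGCE lay at -0.37 and 3.05, in HT29 at 2.71 and 3.65, and in RKO at -0.34 and 3.24. The 4 ratios of HT29 or of shRNA 51 lay at 2.71 or more and the other 2 just below 0, with none between. The mean was 1.99 ± 0.44 (SE, n = 6, adjusted p = 0.182), or 3.98-fold. Its ratios in DLD1, and in RKO with shRNA 49, are shared ratios.

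In DLD1 PEG10 lay at -0.21 and 2.26, in HT29 at 2.32 with shRNA 49 and without a ratio for shRNA 51, and in RKO at 0.29 and 1.22. High PEG10 stood where SGCE was high, in DLD1 with shRNA 51 and in HT29 with shRNA 49. All but the HT29 ratio are shared ratios. The 5 ratios averaged 1.17, and the fitted mean was 1.33 ± 0.44 (SE, n = 5, adjusted p = 0.355). PPP1R9A, a neighbour that is partly read from the maternal copy, averaged -0.18 (adjusted p = 0.793), and DLX5, farther along chromosome 7, had ratios on 4 arrays, between -1.11 and 0.21.

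The cluster on chromosome 15 is the one lost in Prader-Willi and Angelman syndromes. Its paternally read genes include NDN, a growth suppressor of neurons, MAGEL2, MKRN3, SNRPN and SNURF, and its maternally read ones UBE3A, a ubiquitin ligase, and ATP10A. In DLD1 NDN lay at -0.06 and 1.61, in HT29 at 0.88 with shRNA 49 alone measured, and in RKO at 0.19 and 3.89. It was highest in RKO with shRNA 51 and near control in DLD1 and RKO with shRNA 49. The 5 ratios averaged 1.30, the fitted mean was 1.57 ± 0.38 (SE, n = 5, adjusted p = 0.244), and the 3 ratios with shRNA 49 are shared ratios. Without the DLD1 array of shRNA 51 the fitted mean was 2.12 and passed (adjusted p = 0.0456), a call that rests on a single array of shRNA 51. Without the RKO array of shRNA 51 it was 1.03.

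In DLD1 SNURF lay at -0.90 and -0.92, in HT29 at -0.05 with shRNA 49 alone measured, and in RKO at -0.77 and 3.45. Only the RKO array of shRNA 51 was above control among these 5. They averaged 0.16, and the fitted mean was 0.37 ± 0.66 (SE, n = 5, adjusted p = 0.875). In DLD1 SNRPN lay at 0.31 and 0.71, in HT29 at -0.08 and -1.29, and in RKO at -0.08 and 0.21. It averaged -0.04 ± 0.28 (SE, n = 6, adjusted p = 0.976), from 3 probes whose DNMT1 ratios are all shared ratios, and stood at 0.21 where SNURF stood at 3.45. Since SNURF and SNRPN share a transcript, which RNA each probe read is uncertain. MAGEL2 stood between -0.26 and 0.57, UBE3A between -0.49 and 0.65, and ATP10A between -0.47 and 1.12. MKRN3 had ratios on 4 arrays, between -0.11 and 0.30. On the DNMT1 arrays, NDN and SNURF were therefore the members of this cluster with ratios of 3 or more, both in RKO with shRNA 51.

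On chromosome 19, PEG3 encodes a zinc finger protein. In DLD1 PEG3 lay at -0.02 and 1.19, in HT29 at -0.22 with shRNA 49 alone measured, and in RKO at 0.26 and 1.57. All 5 of its ratios are shared ratios. They averaged 0.55, and the fitted mean was 0.68 ± 0.17 (SE, n = 5, adjusted p = 0.250). ZIM2 starts from the same region. In DLD1 ZIM2 lay at 0.998 and 1.32, in HT29 at -1.31 and 0.20, and in RKO at -0.23 and 1.32, with a mean of 0.38 ± 0.33 (SE, n = 6, adjusted p = 0.708). The fitted mean was 0.10 without the DLD1 array of shRNA 49 and 0.64 without the HT29 array of shRNA 49. Both were above control in DLD1 and RKO with shRNA 51.

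On chromosome 20, NNAT encodes a proteolipid of the developing brain. In DLD1 NNAT lay at 1.39 and 0.50, in HT29 at 1.38 and 0.72, and in RKO at -0.52 and 2.55. It was above control on 5 of 6 arrays, with a mean of 1.00 ± 0.43 (SE, n = 6, adjusted p = 0.446), and 4 of the ratios are shared ratios. Without the RKO array of shRNA 51 the fitted mean was 0.60, which is under 2-fold. BLCAP, within which NNAT lies, averaged 0.28 (adjusted p = 0.545). GNAS, which encodes a G protein subunit and has transcripts of either copy, averaged 0.03, and its 4 probes with enough ratios ran from -0.35 to 0.21.

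DIRAS3 and ZDBF2, both read from the paternal copy, had ratios on 4 of the 6 DNMT1 arrays and were not tested. DIRAS3 is a tumour suppressor of the RAS family on chromosome 1. With shRNA 49 it lay at -0.52 for DLD1, -0.56 for HT29 and -0.07 for RKO, all shared ratios, and its only ratio with shRNA 51 was 4.96, in RKO. Its 4 ratios averaged 0.95. Where 3 ratios were enough for the test, its fitted mean was 2.26 ± 0.23 (SE, n = 4, adjusted p = 0.0471). That call rests on a single array of shRNA 51, whose own spread could not be measured, so the SE comes from the 3 shared ratios of shRNA 49 and the spread pooled over genes. ZDBF2, on chromosome 2, lay at -0.40 and 4.17 for DLD1 and at 0.28 and 0.03 for RKO, and both DLD1 ratios are shared ratios.

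**Figure D2:**
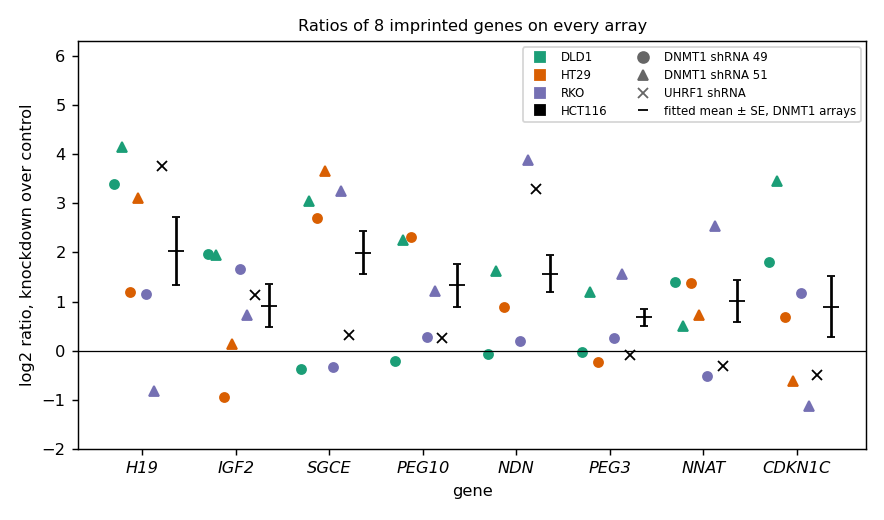
Log2 ratio of knockdown over control for 8 imprinted genes; colour gives the line and shape the shRNA, and the bar with whiskers is the fitted mean ± SE over the DNMT1 arrays. SGCE splits into 4 high and 2 low arrays, and H19 lies above 0 on all arrays but RKO with shRNA 51.

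The members were also compared by the copy from which they are read. Over all DNMT1 arrays the 17 tested paternally read members had a median fitted mean of 0.38, and 13 of them lay above 0. The 10 maternally read ones had a median of 0.09, with 6 above 0, and all 17623 genes a median of 0.03. The paternal median was 0.20 and the maternal one -0.0057 without the RKO array of shRNA 51, and the maternal one was 0.0044 without the DLD1 array of shRNA 49. With shRNA 49 alone they were 0.0265 and -0.0184. The ranges of fitted means overlapped, from -0.15 to 1.99 for paternally and from -0.23 to 2.03 for maternally read members. Since the genes of each list were chosen with earlier results of these data known, the lists were not tested against each other.

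By array, the paternal median was -0.0004 and 0.66 for DLD1, -0.08 and 0.20 for HT29, and -0.04 and 0.79 for RKO. The maternal median was 0.21 and 0.38 for DLD1, -0.29 and -0.08 for HT29, and 0.06 and 0.0048 for RKO. Paternally read members thus had the higher median on all 3 arrays of shRNA 51, and maternally read members on the shRNA 49 arrays of DLD1 and RKO. In DLD1, HT29 and RKO with shRNA 51, 17 of 19, 10 of 13 and 16 of 19 paternally read members lay above 0, where 53.0%, 54.0% and 52.9% of all genes did. With shRNA 49 the counts were 10 of 20, 8 of 19 and 9 of 20, where 47.9%, 48.5% and 50.2% of all genes lay above 0. Among maternally read members they were 7 of 11, 4 of 10 and 5 of 10 with shRNA 51 and 10 of 11, 5 of 11 and 6 of 11 with shRNA 49. Without shared ratios the paternal medians were 0.81, 0.20 and 1.06 with shRNA 51, over 9, 9 and 14 members, and 0.24, 0.19 and 0.10 with shRNA 49, over 10, 12 and 8. The maternal medians without shared ratios were 0.40, -0.06 and -0.23 with shRNA 51 and 0.35, -0.47 and -0.08 with shRNA 49. The order in RKO with shRNA 49 was thus turned, with the paternal median the higher one.

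**Figure D3:**
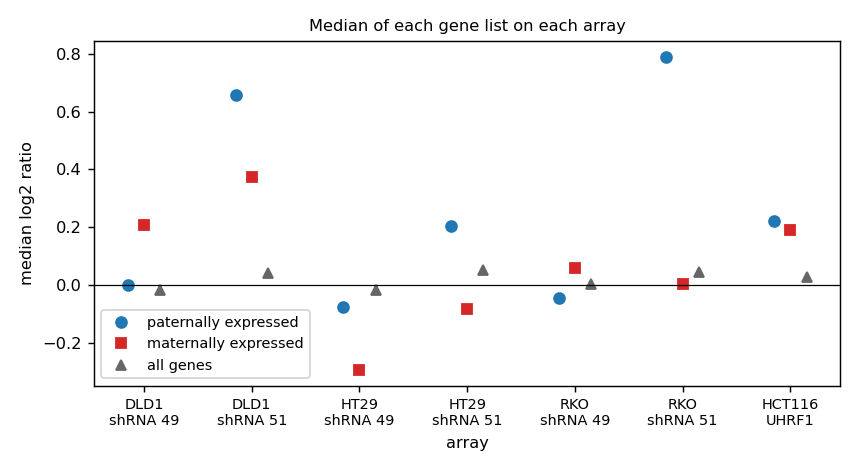
Median log2 ratio on each array for paternally read members (circles), maternally read members (squares) and all genes (triangles). The paternal median lies above the maternal one on every shRNA 51 array, while all genes stay between -0.02 and 0.05.

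The difference between the shRNAs was tested gene by gene. No member passed (smallest adjusted p 0.383, for SGCE), as was so for all genes (0% called), and 24 of the 34 had a higher mean with shRNA 51 (70.6%, against 57.2% of all genes). That count was 16 of 20 for paternally and 7 of 11 for maternally read members. At an unadjusted p under 0.05, 6 of 30 members lay higher with shRNA 51 (20.0%, against 7.57% of all genes), namely SGCE, NDN, PEG10, PEG3, ZIM2 and KLF14, a maternally read transcription factor gene. SGCE differed by 2.65 and NDN by 2.69, each higher with shRNA 51. By the same measure 1 lay lower (3.33%, against 3.68%), KCNQ1 at -1.68. H19 differed by 0.23 and IGF2 by 0.04, so their means were close under either shRNA, but the lines differed. With shRNA 51 H19 was higher in DLD1 (3.39 and 4.15) and HT29 (1.20 and 3.12) and lower in RKO (1.16 and -0.83). IGF2 was higher in HT29 (-0.94 and 0.14), lower in RKO (1.67 and 0.72) and level in DLD1 (1.96 and 1.95). The wider ratios of the shRNA 51 arrays move with these differences, and their part in them was not tested. With shRNA 49 and then shRNA 51, DNMT1 stood at 25.44% and 22.17% of control in DLD1. In HT29 it stood at 23.78% and 52.77%, and in RKO at 10.4% and 19.65%. DNMT1 was thus less reduced with shRNA 51 in HT29 and RKO, and the part of its level was not tested.

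**Figure D4:**
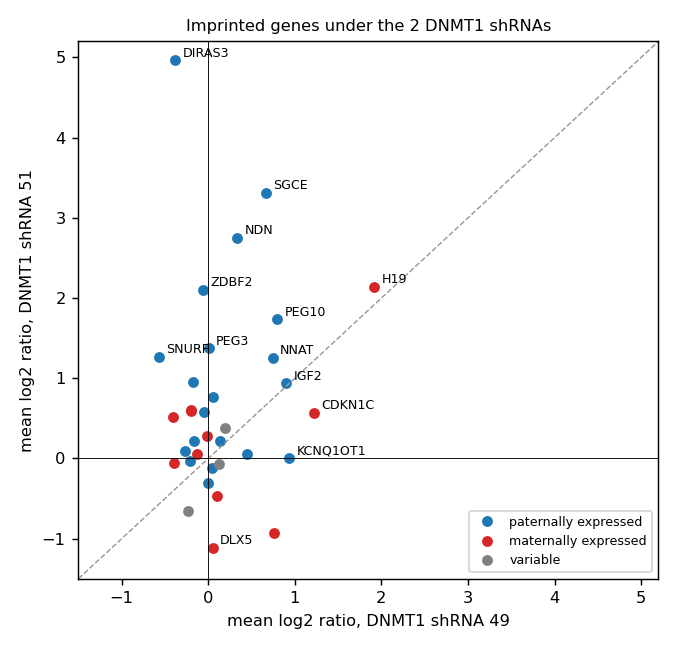
Mean log2 ratio with shRNA 49 (horizontal) against shRNA 51 (vertical) for each imprinted gene, over the arrays with a value; the dashed line marks equal means. DIRAS3, SGCE, NDN and ZDBF2 lie far above the line, and H19 and IGF2 lie near it.

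Within single lines no member was called (limma, adjusted p under 0.05), where 0.0227% of all genes were called for DLD1, 0.0170% for HT29 and 0.0454% for RKO. In DLD1, 7 of 30 members had a fitted line mean at least 2-fold above control (23.3%, against 6.49% of all genes): H19 (3.77), CDKN1C (2.63), IGF2 (1.95), SGCE (1.34), ZIM2 (1.16), PHLDA2 (1.07) and PEG10 (1.02). Of these 7, H19, IGF2, CDKN1C and PHLDA2 belong to the chromosome 11 cluster. In HT29 it was 5 (16.7%, against 5.94%): SGCE (3.18), PEG10 (3.17), NDN (2.23), H19 (2.16) and NNAT (1.05), of which PEG10 and NDN rest on 1 array there. Their single measured ratios were 2.32 and 0.88, so the fitted means are higher than what was measured. In RKO it was 5 (16.7%, against 7.73%): NDN (2.04), SGCE (1.45), SNURF (1.34), IGF2 (1.20) and NNAT (1.01). By the plain average of a line's measured ratios the counts were 7 in DLD1 (against 6.39%), 4 in HT29 without NDN (13.3%, against 5.53%) and 5 in RKO (against 7.24%). No member had a fitted mean at least 2-fold below control in any line, against 1.70% of all genes for DLD1, 2.43% for HT29 and 3.20% for RKO. The F test of differences between lines called 0 members (smallest adjusted p 0.739) and 0% of all genes. It gave an unadjusted p under 0.05 for 5 members (16.7%, against 6.45%), namely H19, IGF2, PHLDA2, PEG10 and ZIM2.

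On the UHRF1 array, with the ratio read as knockdown over control, H19 was the highest imprinted gene. Of 33 members with a ratio, 6 were at least 2-fold higher (18.2%, against 4.62% of all genes) and 0 at least 2-fold lower (against 2.32%). Were the ratio of this array the other way round, the same 6 members would be at least 2-fold lower, H19 the lowest, and 0 higher. Read as above, H19 stood at 3.76, NDN at 3.28, DIRAS3 at 2.14, SNURF at 1.76, IGF2 at 1.14 and DLK1, a paternally read Notch-like growth regulator on chromosome 14, at 2.09. The ratios of NDN and SNURF there are shared ratios. Without shared ratios the count was 4 of 26 members, where 388 of all 12004 genes were at least 2-fold higher. In DLD1 DLK1 lay at 0.04 and 0.02, in HT29 at -0.08 and -0.997, and in RKO at 0.03 and 0.07, all shared ratios, with a mean of -0.15 ± 0.19 (SE, n = 6, adjusted p = 0.813). The other members with a ratio of 2 or more on some DNMT1 array stayed below 2-fold here, namely SGCE (0.33), PEG10 (0.25), ZDBF2 (-0.09), KCNQ1OT1 (-0.16), NNAT (-0.32) and CDKN1C (-0.50). Members had a median of 0.15, paternally read ones 0.22 and maternally read ones 0.19, and 11 of 20 and 6 of 10 lay above 0, where 53.8% of all genes did. With 1 array this difference has no replicate check.

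The other 18 tested members, the chromosome 11 genes KCNQ1OT1, KCNQ1 and PHLDA2 among them, had means from -0.45 (GRB10, an adaptor that damps insulin receptor signals) to 0.47 (KCNQ1OT1), with adjusted p between 0.545 and 0.969. IGF2R, which clears IGF2 from the cell surface, averaged -0.23, MEST, which encodes a hydrolase-like protein, -0.12, and MEG3, a maternally read non-coding RNA, 0.13. PLAGL1, a zinc finger gene of transient neonatal diabetes, averaged -0.09. NAP1L5 averaged 0.41, INPP5F 0.26 and L3MBTL1 0.25, all read from the paternal copy.

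Lists of genes around imprinting were measured beside the members. Of 21 tested factors that set or guard imprints, 1 was called higher (against 0.380% of all genes), with a median of 0.13 over the list. DNMT1 was the only factor called lower (against 0.0170%). As it is the target of the shRNAs and gave the direction of the ratios, that call was set in advance. At an unadjusted p under 0.05, 3 lay higher (14.3%, against 7.20% of all genes), namely OOEP, CTCFL and DNMT3B. By that measure too DNMT1 alone lay lower (4.76%, against 4.18%). The one called higher was OOEP, part of a maternal complex of the egg, at 2.39 ± 0.26 (SE, n = 6, adjusted p = 0.0235), with -0.36, 0.60 and 0.67 under shRNA 49 and 4.19, 3.86 and 5.39 under shRNA 51. CTCFL, the germline relative of the insulator protein CTCF, lay above 0 on all 6 arrays, from 0.61 to 6.06, but did not pass (2.34 ± 0.67, adjusted p = 0.283). DNMT3B averaged 0.73 ± 0.29 (SE, n = 6, adjusted p = 0.409 by limma), with 1.56 and 1.77 in DLD1. In HT29 it lay at -0.19 and 0.53, and in RKO at 0.13 and 0.58. ZFP57 (0.53), its partner TRIM28 (0.0077), the related guard ZNF445 (-0.0032) and CTCF (0.0013) had adjusted p of 0.596 or more. The ratios of ZFP57 ran from -0.53 with shRNA 49 to 2.28 with shRNA 51, both in RKO. Of 45 tested neighbours of the clusters none was called, with a median of 0.02. At an unadjusted p under 0.05, 7 neighbours lay higher (15.6%, against 7.20% of all genes and 16.7% of members) and 1 lower (2.22%, against 4.18%). The nearest to the adjusted threshold was DIO3, a thyroid hormone deiodinase at the far end of the DLK1 cluster, at 1.30 ± 0.21 (adjusted p = 0.0755). It lay above 0 on all 6 DNMT1 arrays and at -1.59 on the UHRF1 array. Whether these neighbours, DIO3 included, are imprinted themselves was not checked, so they are no comparison with non-imprinted genes. Of 17 genes of the IGF pathway none was called, with a median of 0.04. By the unadjusted measure 1 of them lay higher (5.88%, against 7.20% of all genes) and 0 lower (against 4.18%). That gene was IGFBP4, with a mean of 1.255, and with 2.58 and 2.84 in RKO. Markers of colorectal epithelium (10 tested, median 0.11, means from -0.64 to 1.19) and of fibroblasts and endothelium (9 tested, median 0.26, means from -0.20 to 1.68) gave 0 calls. At an unadjusted p under 0.05, 2 of the 9 stromal markers lay higher (22.2%, against 7.20% of all genes), the endothelial genes PECAM1 (1.32) and VWF (0.79). CDH5, also an endothelial marker, averaged -0.095 (adjusted p = 0.904 by limma). A mean above 0 was found for 6 of the 9, against 55.2% of all genes. At the same unadjusted threshold 1 of the 10 epithelial markers lay lower (against 4.18%), KRT20 (-0.64), a keratin of differentiated epithelium, and 0 higher. The part of these markers in the results was not tested.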

How the data were processed

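Total RNA of 7 samples was hybridised against control RNA on 2-colour Agilent arrays. For each array the deposited file gives every probe a log ratio, read here as log2. Per the submitters' processing notes the authors used limma (version not given). The sources used here give no log base, background correction, normalization or direction, and signal strengths were not used, so dim probes could not be filtered. For arrays, their number limits the precision.

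Of 41000 probes, 29341 had 1 symbol, 33 several and 11626 none listed. Ratios were averaged per symbol. Genes with a ratio on at least 5 of 6 DNMT1 arrays (17623) were tested with limma 3.58.1 (R 4.3.3; Python 3.11.15 for figures): shRNA as centred covariate, line as random block (correlation 0.165) for all lines, and 1 coefficient per line plus the shRNA for lines and shRNAs. Two-sided p-values received the Benjamini-Hochberg adjustment over all tested genes (threshold 0.05). The fits were tested on simulated data.

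Members and lists were chosen with earlier results of these data known. Array by array values were given for members with a mean of at least 2-fold or an unadjusted p under 0.05. They were also given for members with a 2-fold change on the UHRF1 array, and for partners sharing their start. CDKN1C, KCNQ1OT1, KCNQ1 and ZDBF2 were added to these after their values were seen. The line means of PHLDA2 and the means of ZFP57, TRIM28, ZNF445 and CTCF were likewise added after their values were seen. Alternatives covered covariate, block, normalization, probe summary, shared ratios, missing values, shRNA and each array left out.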

Additional observations from a re-analysis of the deposited data

Results flagged for a closer look

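Among the 34 members with ratios on 4 or more DNMT1 arrays, 5 had 1 array apart from the others at Dixon's 95% level, where chance gives about 1 in 20 groups. By the same measure 9.53% of all genes had such an array, against 14.7% of members. RKO with shRNA 51 was that array for DIRAS3 (4.96), SNURF (3.45) and NAP1L5, a paternally read histone chaperone gene (1.71). For ZDBF2 it was DLD1 with shRNA 51 (4.17), and for DLK1 HT29 with shRNA 51 (-0.997), both shared ratios. DIRAS3 and ZDBF2 had 4 ratios and SNURF 5. The NAP1L5 value averages 2 probes, at 2.12 and 1.30. The second probe also lay at 0.81 in DLD1 and 1.14 in HT29 with shRNA 51, so RKO was not apart by that probe. All 5 values came from arrays with shRNA 51, whose ratios spread more widely and whose part in this was not tested.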

How the results depend on the processing

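Under 17 alternatives of the all-lines fit the number of imprinted genes called stayed at 0, except for 1 where 3 ratios sufficed for testing (DIRAS3) and between 0 and 2 with an array left out. The calls with an array left out were DIRAS3 and NDN without DLD1 shRNA 51, DIRAS3 without HT29 shRNA 51 and H19 without RKO shRNA 51. DIRAS3 has no ratio on the shRNA 51 arrays of DLD1 and HT29, so leaving them out removed none of its values. It entered those fits because fewer ratios were then required. All calls of DIRAS3 thus use the same 4 ratios, with RKO the only array of shRNA 51. Over their alternatives the adjusted p ran from 0.0895 to 0.707 for SGCE, from 0.0469 to 0.725 for H19 and from 0.0456 to 0.621 for NDN, and all kept their sign. With shRNA 51 alone the medians were 0.51 for members, 0.85 for paternally and 0.40 for maternally read ones, and with shRNA 49 alone 0.0265, 0.0265 and -0.0184. Signs turned for SNRPN, SNURF, ZIM2 and DLK1. SNRPN was 0.0509 with the median of probes and 0.0476 with shRNA 49 alone, and ran from -0.24 to 0.25 with an array left out. SNURF was -0.57 and ZIM2 -0.18 with shRNA 49 alone, SNURF ran from -0.71 (without RKO shRNA 51) to 1.45 with an array left out, and DLK1 was 0.0197 without HT29 shRNA 51; the cause was not tested.

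Counts over all genes, 67 higher and 3 lower, depended on the model. They were 10 and 0 without the shRNA covariate, 7 and 0 with the arrays of a line averaged, 28 and 0 after quantile normalization, 5 and 0 with shRNA 49 alone, and 13 and 0 with shRNA 51 alone. The number lower was 7 without the line block and 1 with arrays scaled to 1 spread, and with an array left out the counts ran from 8 to 168 higher and from 0 to 38 lower. The number higher fell to 12, 18 or 8 when the shRNA 49 array of DLD1, HT29 or RKO was dropped, and reached 168, 105 or 135 when that of shRNA 51 was dropped. Without shared ratios 20 members could be tested, and SGCE, NDN, PEG10, PEG3, NNAT and SNURF were not among them. Moving members between the parental lists left the paternal median above the maternal one.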
